A study of Mus musculus with 6 samples.

Results

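The genes described here are 10 heat shock and chaperone genes of the fetal mouse heart, taken by Ensembl ID from a fixed list of names out of 48505 genes in the deposited tables, whose own rows carry no symbols. They are the Hsp70 genes Hspa5 (ENSMUSG00000026864), Hspa8 (ENSMUSG00000015656), Hspa1a (ENSMUSG00000091971) and Hspa1b (ENSMUSG00000090877), and the Hsp90 genes Hsp90aa1 (ENSMUSG00000021270) and Hsp90ab1 (ENSMUSG00000023944). The small heat shock protein genes are Hspb1 (ENSMUSG00000004951), Hspb7 (ENSMUSG00000006221) and Cryab (ENSMUSG00000032060), and the J-domain protein gene is Dnajb1 (ENSMUSG00000005483). The measurement was the amount of each transcript pulled down with an antibody against N6-methyladenosine (m6A), a methyl mark on RNA, from fragmented heart RNA. The 6 immunoprecipitate (IP) libraries were 3 nano-TiO2 and 3 sham. Both groups were wild-type FVB/NJ fetuses on gestational day 15, hearts of male and female fetuses were pooled, and no other allele or agent is named for either group. Dams of both groups were 10 weeks old and had the same schedule, 360 minutes on each of 6 days within 8 days, from gestational day 5. Dams of the nano-TiO2 group inhaled engineered titanium dioxide nanoparticles in a whole-body chamber at a target of 12 mg/m3, and sham dams inhaled filtered room air. How litters were spread over the pools is not in the labels, so the spread behind each p-value is that among these 6 samples and may be technical. The labelled tissue could not be checked against its marker genes, since the files at hand pair no other Ensembl ID with a symbol.

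Chaperones bind proteins that are unfolded or not yet folded and keep them from clumping. Hsp70 proteins, stimulated by J-domain partners, cycle on and off such clients with ATP. Hsp90 proteins finish the maturation of kinases and steroid receptors, and small heat shock proteins hold clients without using ATP. Under heat or other protein-damaging stress, heat shock factor 1 binds repeats of the unit GAA and its reverse TTC in the promoters of inducible members such as Hspa1a, Hspa1b, Hspb1 and Dnajb1. Hspa5 encodes BiP, the Hsp70 of the endoplasmic reticulum, and it is induced instead through the ER stress response element when unfolded proteins build up there. In heart muscle, Cryab and Hspb1 protect the contractile and intermediate filaments, and Hspb7 is a heart-enriched small heat shock protein. The m6A mark is known to bear on the stability and translation of mRNAs, and m6A on Hspa1a mRNA has been linked to its translation after heat shock in cultured cells.

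Sequence matches to stress-response elements in the promoters are shown for the members that have one. The table of mouse promoters at hand, RefSeq on GRCm38.p6, holds 6 of the 10 members, and the 250 bases before the annotated start were searched on both strands for GAANNTTC and TTCNNGAA, which can overlap each other, for GAANNTTCNNGAA and TTCNNGAANNTTC, and for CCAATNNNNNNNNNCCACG. These coordinates belong to GRCm38.p6 and not to GRCm39, the build named for the deposited tables. The Hspa5 promoter (chr2:34771840-34772089, plus strand) has the ER stress response element, in capitals, at bases -65 to -47 from the start. That motif was found in 0.113% of 32851 promoters.
Hspa5: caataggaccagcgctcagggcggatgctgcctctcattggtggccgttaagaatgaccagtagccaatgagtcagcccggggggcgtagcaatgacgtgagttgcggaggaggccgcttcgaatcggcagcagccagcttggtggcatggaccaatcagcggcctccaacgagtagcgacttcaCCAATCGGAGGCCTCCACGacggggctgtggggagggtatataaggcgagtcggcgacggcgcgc
The Hspb1 promoter (chr5:135887669-135887918, plus strand) holds GAANNTTC at -117 to -110 and again at -97 to -90, both in capitals. The promoters of Hspa1a (chr17:34972157-34972406, minus strand) and Hspa1b (chr17:34959239-34959488, minus strand) hold it once each, at -104 to -97. Of all promoters searched, 6.69% have this motif.
Hspb1: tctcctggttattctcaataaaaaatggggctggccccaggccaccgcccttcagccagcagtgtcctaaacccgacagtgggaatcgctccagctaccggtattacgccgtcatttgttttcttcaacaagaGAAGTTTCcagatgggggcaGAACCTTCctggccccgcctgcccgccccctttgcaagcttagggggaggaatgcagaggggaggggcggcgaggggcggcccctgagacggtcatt
Hspa1a: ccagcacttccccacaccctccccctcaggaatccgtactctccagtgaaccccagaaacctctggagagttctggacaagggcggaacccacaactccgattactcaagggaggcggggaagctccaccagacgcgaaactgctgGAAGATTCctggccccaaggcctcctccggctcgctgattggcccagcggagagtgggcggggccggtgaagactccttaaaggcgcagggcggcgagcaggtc
Hspa1b: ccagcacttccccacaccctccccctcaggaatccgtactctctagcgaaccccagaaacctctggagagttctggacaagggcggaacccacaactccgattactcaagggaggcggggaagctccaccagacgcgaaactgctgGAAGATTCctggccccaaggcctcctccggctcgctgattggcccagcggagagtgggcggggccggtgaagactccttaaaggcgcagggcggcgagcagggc
The last pair of sequences were identical at 247 of 250 bases. From Hspa1a to Hspa1b they differed by C44T, T47C and T249G, counted from 1 at the 5′ end of the printed stretch. None of the motifs was found in the promoter windows listed for Hspb7 and Dnajb1, which says only that these letters are not there. The matches describe sequence, and no binding was measured.

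Recovered reads numbered 20205024 to 28251706 in nano-TiO2 and 22151447 to 31523675 in sham libraries. The 4 genes with the most reads of any, which are no members, took 8.03% to 18.0% of the reads in nano-TiO2 and 20.6% to 35.2% in sham libraries. Normalized values still differed in total, with 19886237 to 22752137 in nano-TiO2 and 27762102 to 34527421 in sham libraries. Fits with equal totals were therefore among the alternatives. Levels below are normalized IP reads summed over a gene's windows, which mostly start 25 nucleotides apart, and adjusted levels are the same values after the authors divided each gene in each library by 1 factor. No label or header states what that factor was made from. In pooled tissue, fewer cells of a type and less RNA per cell cannot be told apart, and in IP reads alone neither can the amount of a transcript and its methylation.

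Levels were first ordered per 1000 nucleotides of windows, averaged over the 6 libraries. Small heat shock proteins stood at the top and the inducible Hsp70 pair at the bottom. Cryab stood at 19099.6 ± 3713 normalized reads per 1000 nucleotides and Hspb1 at 18985 ± 5045 (SD, n = 6), at percentiles 99.6 and 99.5 of the 18566 genes tested. Hspb7 followed at 9670.1 ± 691 and Hsp90ab1, the constitutive cytosolic Hsp90, at 9250.5 ± 1313. These pairs of neighbours were not separated, since Cryab lay above Hspb1 in 4 of 6 libraries and Hspb7 above Hsp90ab1 in 3 of 6. Hspa8, the constitutive cytosolic Hsp70, had 5915 ± 326 and Hspa5 had 2592 ± 899 reads per 1000 nucleotides. The stress-inducible Hsp90 gene Hsp90aa1 had 1028 ± 285, and Dnajb1, whose protein brings clients to Hsp70, had 404 ± 77.2. The library ranges of each neighbouring pair from Hsp90ab1 to Hspa1b in this order did not overlap. The length used counts every window of a gene, also those without a read. Such windows were 52 of 172 in Hspa8 and 8 of 119 in Hsp90ab1. The order therefore depends on which windows are counted, and an order over covered windows alone was not computed. Hspa1b and Hspa1a, the stress-inducible Hsp70 pair, came last with 52.0 ± 9.25 and 29.95 ± 6.46 reads per 1000 nucleotides, at percentiles 45.4 and 33.6 of all genes tested. Over all libraries they rested on 901 and 549 reads, against 8046 for Dnajb1 and 69037 for Hspa5. Because their transcripts are near-identical, the split of reads between them is uncertain. How reads that match both were counted is not stated, so both levels and percentiles may be too low. The other 8 members lay in the top quintile of levels per gene.

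**Figure D1:**
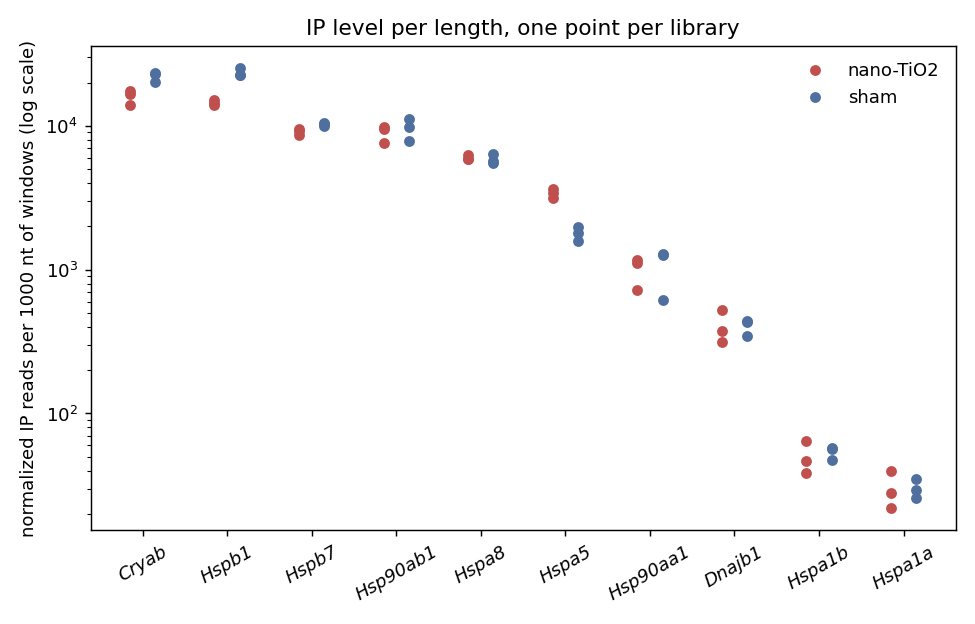
Normalized IP reads per 1000 nucleotides of windows (log scale) for the 10 genes, ordered by their mean, with 1 point per library, nano-TiO2 points left of sham points. Cryab and Hspb1 average 19099.6 and 18985 and Hspa1a 29.95, and the 3 nano-TiO2 points of Hspa5 lie above its 3 sham points.

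The first comparison asked whether the IP level of the members differed with exposure. Of the 10 members, Hspa5 rose and Hspb1 and Cryab fell, while the other 7 did not pass the test. All 10 passed the filter of an average of 10 normalized reads or more. Among all genes tested 24.0% rose and 12.0% fell (36.0% either way), so 3 of 10 is near the background. The median log2 change of the members was -0.06, against 0.13 for all genes. Tests were limma with trend on log2(level + 1), two-sided, adjusted by Benjamini-Hochberg over all genes at 0.05, and SE is the standard error of the log2 change, with 3 libraries in each group throughout.

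Hspa5 had 13247, 15386 and 14356 normalized IP reads in nano-TiO2 replicates 1, 2 and 3, against 6738, 8319 and 7650 in sham replicates 1, 2 and 3. Every nano-TiO2 library lay above every sham library. Its means were 14329.8 ± 1069 in nano-TiO2 hearts, against 7569 ± 793 in sham hearts (SD, n = 3 each), a 1.90-fold rise (log2 change 0.92 ± 0.14 SE, adjusted p = 0.00178, limma). Hspa5 passed in all 16 alternatives run on this scale, with log2 changes of 0.66 to 1.42.

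Of the 3 small heat shock protein genes, Hspb1 and Cryab fell and Hspb7 did not pass. Their groups did not overlap, nano-TiO2 lower, as in 18.5% of all genes tested. Hspb1, an ATP-independent holdase, had 14700.3, 14233 and 15615 reads in nano-TiO2 libraries, against 23105, 25928 and 23178 in sham. The means of 14849 ± 703 in nano-TiO2 and 24070.4 ± 1609 in sham gave a log2 change of -0.70 ± 0.13 SE (adjusted p = 0.00391, limma). The fall was 1.62-fold and the highest nano-TiO2 library lay below the lowest sham library. Hspb1 missed the threshold after quantile normalization (-0.15, adjusted p = 0.438, limma) and with equal library totals (-0.20, adjusted p = 0.383, limma).

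Cryab, which encodes alpha-B crystallin, had 24714, 20524 and 25729 reads in nano-TiO2 libraries, against 29817, 34071 and 34177 in sham. Its 3 nano-TiO2 values lay below its 3 sham values. The means were 23656 ± 2759 in nano-TiO2 and 32688 ± 2487 in sham, with a log2 change of -0.47 ± 0.15 SE (adjusted p = 0.0339, limma), a 1.39-fold fall. This call was lost without any 1 of the 6 libraries (adjusted p 0.051 to 0.0979, limma), and in 5 of the 10 other alternatives run, of which equal totals put the change at 0.03. Hspb7 had 26142, 23775 and 25213 reads in nano-TiO2, against 28266, 27453 and 28706 in sham. Its groups also lay apart, but its log2 change of -0.17 ± 0.13 SE did not pass (adjusted p = 0.326, limma) and was 0.33 both with equal totals and after quantile normalization. Over the 10 members, groups lay apart upward in 1 and downward in 3, against 30.9% and 18.5% of all genes.

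Hspa8 had 25292, 26787 and 25229 reads in nano-TiO2 and 23650.4, 24327 and 27313 in sham libraries. These overlap, and the log2 change was 0.04 ± 0.13 SE (adjusted p = 0.836, limma), though it passed after quantile normalization (0.54, adjusted p = 0.013, limma) and with equal totals (0.54, adjusted p = 0.039, limma). Hsp90ab1 had 22606, 28998 and 28149.7 reads in nano-TiO2 and 29075, 32958 and 23334 in sham, again with overlap (-0.09 ± 0.17 SE, adjusted p = 0.713, limma). Hsp90aa1 was the least even of the abundant members within groups, with 4355, 2849 and 4555 reads in nano-TiO2 and 2429.6, 4981 and 5039.8 in sham. Nano-TiO2 replicate 2 and sham replicate 1 were low and the other 4 libraries high, and the log2 change was -0.04 ± 0.30 SE (adjusted p = 0.939, limma).

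The heat-inducible Hsp70 pair and its J-domain partner showed no group difference past the test. Hspa1a had 64.7, 118 and 82.9 normalized reads in nano-TiO2 and 86.4, 103 and 75.7 in sham libraries. Hspa1b had 108, 179.6 and 131 in nano-TiO2 and 159, 162 and 134 in sham, and Dnajb1 had 998, 1686 and 1202 in nano-TiO2 and 1398, 1373 and 1100.1 in sham. In each of the 3 genes the highest and the lowest library were both nano-TiO2, replicate 2 and replicate 1. The log2 changes were -0.03 ± 0.26, -0.14 ± 0.22 and -0.02 ± 0.21 SE (adjusted p 0.943, 0.652 and 0.95, limma). Hspa1a and Hspa1b summed, which does not depend on how reads were split between the copies, gave 173, 297 and 214 reads in nano-TiO2 and 246, 265 and 209 in sham (-0.10 ± 0.22 SE, adjusted p = 0.752, limma). The sum therefore overlapped between groups as each copy did. Any reads left out because they match both copies would be missing from the sum as well.

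**Figure D2:**
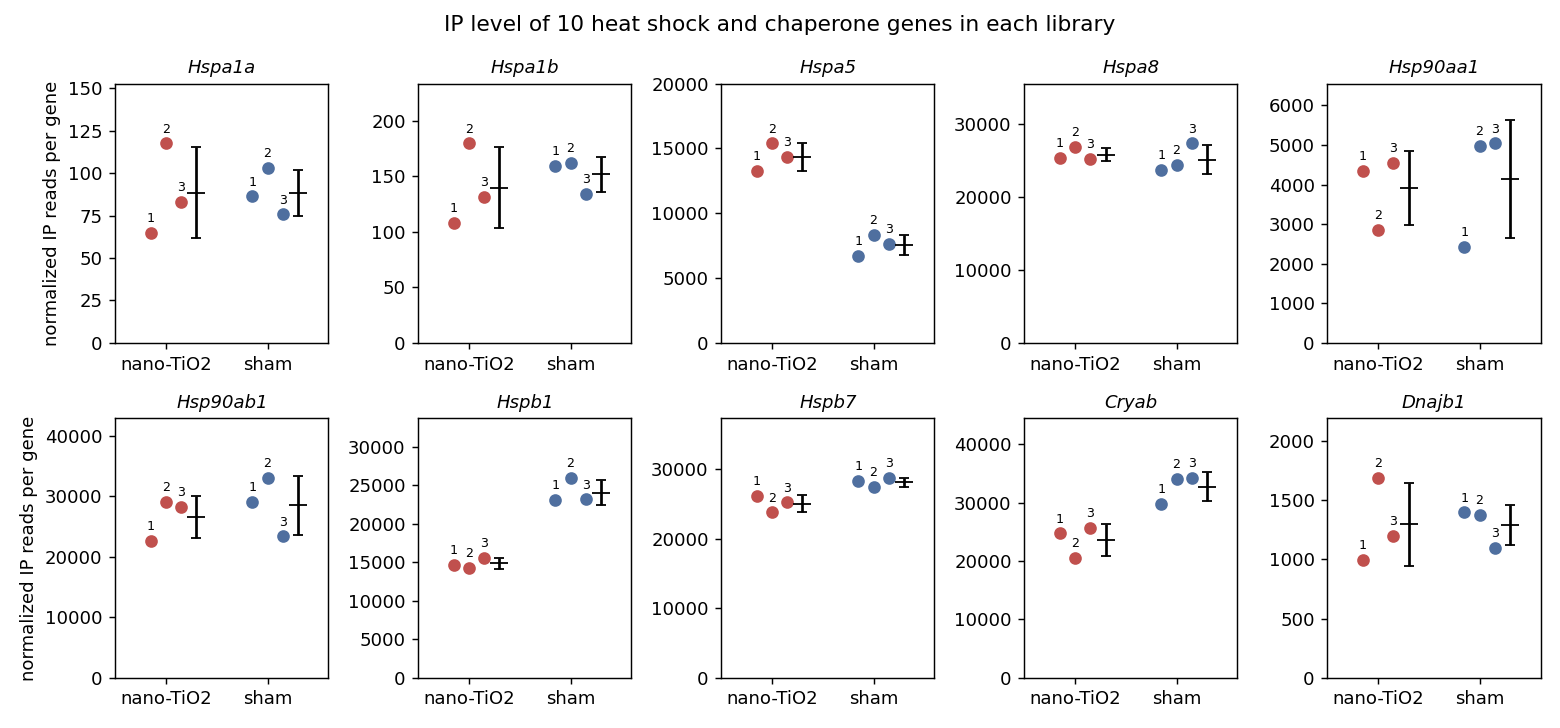
IP level of each gene in each library (normalized reads, 1 panel per gene with its own axis from 0), nano-TiO2 left of sham, with the mean and SD of 3 libraries. The groups lie apart in Hspa5 (nano-TiO2 above), and in Hspb1, Cryab and Hspb7 (nano-TiO2 below).

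Across the 6 libraries Hspa1a, Hspa1b and Dnajb1, singled out after their values were seen, had similar patterns of IP level. Pearson's r of log2 level was 0.943 between Hspa1a and Hspa1b (Spearman's rho 0.943), 0.953 between Hspa1a and Dnajb1 (0.943) and 0.961 between Hspa1b and Dnajb1 (0.886), the 3 highest values among all pairs of members. The other inducible members did not follow them, since r with Hspa1a, Hspa1b and Dnajb1 was 0.07, 0.28 and 0.02 for Hspb1 and -0.38, -0.53 and -0.64 for Hsp90aa1. The constitutive Hsp90ab1 had 0.81, 0.79 and 0.77 with the same genes. Without nano-TiO2 replicates 1 and 2, r was 0.791, 0.793 and 0.916 over the 4 libraries left. On adjusted values the same pairs gave -0.22, -0.45 and 0.20. Adjusted values are rounded to whole numbers in each window, and the highest windows of Hspa1a and Hspa1b averaged 2.36 and 4.18 normalized reads. Rounding therefore bears on their adjusted sums, and these r are not a like comparison with IP level. In IP level the small heat shock protein genes came next, so high r was not particular to Hspa1a, Hspa1b and Dnajb1. It was 0.931 for Hspb1 and Cryab, 0.918 for Hspb7 and Cryab and 0.864 for Hspb1 and Hspb7. On adjusted values these gave 0.16, -0.19 and -0.53. Pairs of genes outside the members were not examined. All these values describe 6 libraries that share their size factors, and Hspa1a and Hspa1b share sequence as well, so no p is given. Nano-TiO2 replicate 2, the highest library for Hspa1a, Hspa1b and Dnajb1, also had the smallest share of reads in the 4 leading genes, and its part in their relation was not tested.

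The IP change of genes differed by their length, and the called members sat at different places along that range. Hspb1 has 41 windows and lay in the quintile of genes with the fewest windows (8 to 52), where the median was -0.48 on the log2 scale (interquartile range -0.80 to -0.04) and 34.2% of genes fell. Its change of -0.70 was inside that range. Cryab, with 59 windows, lay in the next quintile, whose interquartile range was -0.43 to 0.35, and its change of -0.47 was below it. Hspa5, with 169 windows, lay in the middle quintile, where the interquartile range was -0.23 to 0.59 and 19.1% of genes rose, and its change of 0.92 was above it. With the trend on length removed from each library, Hspa5 (0.66, adjusted p = 0.0091) and Hspb1 (-0.42, adjusted p = 0.0476) still passed and Cryab did not (-0.32, adjusted p = 0.152, limma). In the top quintile of levels, which holds 8 members, the median was -0.27, and 12.4% of genes rose and 32.5% fell. Whether length or level has a part in the members' changes beyond this was not tested.

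**Figure D3:**
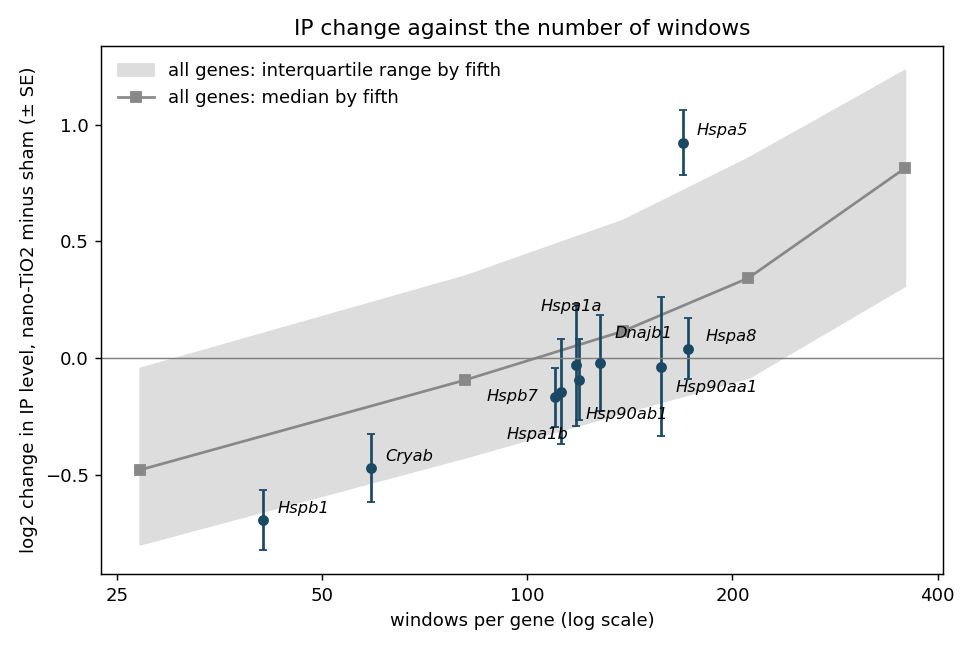
Log2 change in IP level (nano-TiO2 minus sham, ± SE of the limma fit) of the 10 genes against their number of windows on a log axis. The grey line and band are the median and interquartile range of all genes, in quintiles by window number, drawn at the median of each. Hspa5 lies above the band of its quintile, and Hspb1 lies low among short genes whose median is -0.48.

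The second comparison used adjusted levels, in which no member and no gene at all passed (0.0% of 19361 genes, limma). At an unadjusted p under 0.05 there were 2 members, Hspa5 and Hspb7, and 18.6% of all genes. The smallest adjusted p of a member was 0.209, and 7 members had changes above 0, against 69.5% of all genes. The median log2 change was 0.10 for members and 0.17 for all genes.

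Hspa5 had adjusted levels of 10621, 13021 and 12177 in nano-TiO2 libraries, against 8628, 11907 and 8381 in sham. Sham replicate 2 lay above nano-TiO2 replicate 1, so the groups overlapped, and the log2 change was 0.32 ± 0.13 SE (adjusted p = 0.233, limma). Without sham replicate 2 it passed, at 0.48 (adjusted p = 0.0277, limma), where 8.32% of all genes were also called higher. Array quality weights gave that library the lowest weight, 0.37. They gave nano-TiO2 replicate 3 the highest, 4.46, against 0.58 and 0.83 for nano-TiO2 replicates 1 and 2. With these weights, under which the nano-TiO2 group rests mostly on replicate 3, Hspa5 passed at 0.44 (adjusted p = 0.00626, limma). Hspa8, Hsp90ab1, Hspb7 and Dnajb1 passed too, at 0.14 to 0.31, where 22.5% of all genes were called higher.

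Hspb1 had 19176, 19163 and 18632 in nano-TiO2, against 20067, 19823 and 19433 in sham. Its groups still lay apart, but by -0.06 ± 0.06 SE on the log2 scale (adjusted p = 0.629, limma), where the IP level had differed by -0.70. Cryab had 27668, 28684 and 27759 in nano-TiO2 and 27817, 28406 and 28648 in sham, and no longer lay apart (-0.01 ± 0.06 SE, adjusted p = 0.923, limma). Hspb7 turned the other way, with 28253, 29823 and 27927 in nano-TiO2 above 25496, 26262 and 23515 in sham, a log2 change of 0.19 ± 0.07 SE that did not pass (adjusted p = 0.209, limma).

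Hsp90ab1 lay apart as well on this scale, with 28609, 29030 and 28642 in nano-TiO2 above 25971, 27304 and 25869 in sham (0.12 ± 0.06 SE, adjusted p = 0.301, limma). In all, 2 members lay apart upward and 1 downward, against 19.4% and 2.96% of all genes. The other 5 overlapped between groups. Their log2 changes were 0.14 for Hspa8 (adjusted p = 0.352), 0.07 for Hsp90aa1 (0.682), 0.23 for Dnajb1 (0.417), 0.04 for Hspa1a (0.937) and -0.11 for Hspa1b (0.789, all limma). Windows of Hspa1a and Hspa1b hold few reads, so rounding to whole numbers bears on their adjusted levels. Libraries were closer together on this scale in 8 of 10 members. The highest library of Hspb1 was 1.82 times its lowest in IP level and 1.08 times in adjusted level, and these ratios were 1.67 and 1.04 for Cryab and 2.07 and 1.21 for Hsp90aa1. Hspa8 and Hspb7 were slightly wider, at 1.19 and 1.27 against 1.15 and 1.21 in IP level. Of 18453 genes, 74.2% had a smaller ratio in adjusted level, and the median ratio was 2.18 in IP and 1.67 in adjusted level.

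The dividing factor accounts by construction for the gap between the scales. For Hspa5 it was 1.25, 1.18 and 1.18 in nano-TiO2 libraries against 0.781, 0.699 and 0.913 in sham, all nano-TiO2 values above all sham values (log2 change 0.60 ± 0.15 SE, adjusted p = 0.0436, limma). For Hspb1 it was 0.767, 0.743 and 0.838 in nano-TiO2 against 1.15, 1.31 and 1.19 in sham, the reverse order (-0.64 ± 0.14 SE, adjusted p = 0.0403, limma). For Cryab it was 0.893, 0.716 and 0.927 in nano-TiO2 against 1.07, 1.20 and 1.19 in sham, apart in the same direction but not called (-0.46 ± 0.16 SE, adjusted p = 0.0723, limma). The factor of Hspb7 also lay apart downward (-0.36 ± 0.14 SE, adjusted p = 0.101, limma). So 1 member was called higher and 1 lower, against 6.71% and 7.94% of all genes, and 1 lay apart upward and 3 downward, against 18.8% and 23.6%. Neither call, nor any other gene's, was left when any 1 library was left out or the libraries were centred on their median factor. The Hsp90aa1 factor was low in the same libraries as its IP level, at 0.669 in nano-TiO2 replicate 2 and 0.692 in sham replicate 1, with 1.12 and 1.09 in the other nano-TiO2 and 1.22 and 1.20 in the other sham libraries.

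**Figure D4:**
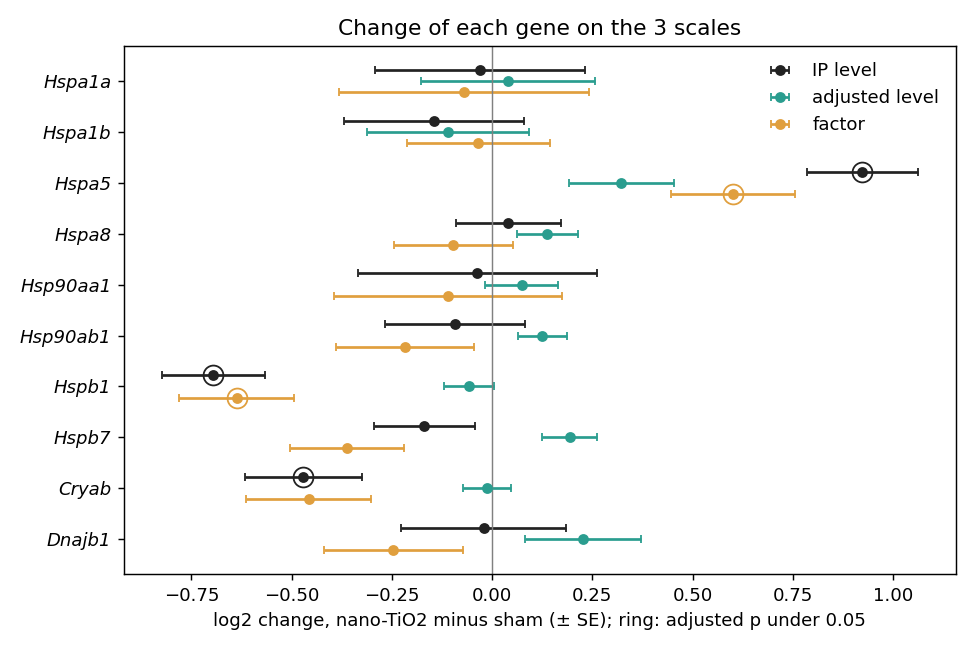
Log2 change (nano-TiO2 minus sham, ± SE of the limma fit) of each gene in IP level, adjusted level and the dividing factor, with rings on changes at an adjusted p under 0.05. Rings mark Hspa5, Hspb1 and Cryab in IP level and Hspa5 and Hspb1 in the factor, and no adjusted level has one.

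Along each gene, the third comparison asked whether single windows changed. Of 619 member windows that averaged 10 or more normalized reads, 134 were called, 96 of them higher and 38 lower, against 3.88% higher and 7.32% lower among all 250317 windows tested (limma). All calls lay in the 3 members called per gene. The lower calls depended on scaling. After quantile normalization 119 member windows were called higher and 0 lower, while over all windows 8484 were higher and 2520 lower, against 9718 and 18334 with the deposited scaling (limma). Windows of a gene share its libraries and neighbours may share fragments, so they are not independent measurements.

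In Hspa5, 96 of 104 tested windows rose, and all 104 log2 changes were above 0, with a median of 0.93 and a range of 0.41 to 1.52. The window starting at 926 had 176, 175 and 168 reads in nano-TiO2 against 68.4, 73.4 and 85.1 in sham (1.19 ± 0.19 SE, adjusted p = 0.00547, limma). The window at 2901 had 151, 163 and 177 in nano-TiO2 against 53.1, 80.0 and 70.3 in sham (1.28 ± 0.21 SE, adjusted p = 0.00551, limma). In both, all nano-TiO2 libraries lay above all sham libraries. The highest window of the gene, at 2576, also rose (0.85 ± 0.21 SE, adjusted p = 0.0188, limma). Leaving out a library left 50 to 87 called windows, namely 50 when sham replicate 1 and 56 when nano-TiO2 replicate 3 was dropped.

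In Hspb1, 30 of 32 tested windows fell, and the changes were nearly even along the gene, with a median of -0.69 and an SD over windows of 0.058. The window at 251 had 443, 468 and 496 reads in nano-TiO2 against 796, 883 and 804 in sham (-0.82 ± 0.18 SE, adjusted p = 0.0103, limma). The highest, at 751, had means of 656 ± 64.6 in nano-TiO2 and 1038 ± 91.1 in sham (-0.66 ± 0.18 SE, adjusted p = 0.0285, limma). The count of called windows depended on which library was dropped. It was 1, 24 and 11 without nano-TiO2 replicates 1, 2 and 3, and 7, 3 and 27 without sham replicates 1, 2 and 3, while the gene as a whole stayed called in each case.

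In Cryab, 8 of 48 tested windows fell, and all 48 changes were below 0 (median -0.47, range -0.86 to -0.16). The window at 126 had 132, 122 and 131 reads in nano-TiO2 against 221, 245 and 220.3 in sham (-0.83 ± 0.18 SE, adjusted p = 0.0107, limma). The highest window, at 1251, had 1258 ± 243 in nano-TiO2 and 1661 ± 186 in sham and did not pass (-0.41 ± 0.21 SE, adjusted p = 0.212, limma). Without 1 library 3 to 6 Cryab windows were called, namely 3 when either replicate 1 was dropped, 4 without nano-TiO2 replicate 3 or sham replicate 2, and 5 without nano-TiO2 replicate 2. In Hspb7, 67 of 69 windows lay below 0 with a median of -0.15 and none was called. Hspa8, Hsp90aa1, Hsp90ab1 and Dnajb1 had no called window among 84, 110, 100 and 72 tested. Hspa1a and Hspa1b had no window at the level filter, their highest holding 2.36 and 4.18 normalized reads on average.

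In adjusted values no member window was called, against 0.00316% of 253327 windows (limma). Hspa5 kept 101 of 105 windows above 0 (median 0.32) and Hspb1 30 of 32 below 0 (median -0.05). Hspb7 had 67 of 69 above 0 (median 0.21) and Hsp90ab1 87 of 100 (median 0.13), while Cryab had 19 of 48 above 0 (median -0.02). Ranked by their median window change, the members with tested windows stood in the order of their log2 changes per gene, on each scale.

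Set against the other windows of its own gene, no member window was called, where 0.0465% of 249423 windows were (limma diffSplice). At an unadjusted p under 0.05 there were 10 member windows, and 3.26% of all windows. The smallest adjusted p was 0.75, in Hspa5. The SD of these within-gene differences over windows was 0.06 in Hspb1, 0.10 in Hspb7, 0.12 in Hspa8, 0.17 in Cryab and 0.18 in Hspa5. It was wider in the members with fewer reads per window, 0.29 in Hsp90aa1 and 0.38 in Dnajb1. On simulated reads this test recovered 7.46% of 2-fold and 84.8% of 4-fold changes of single windows. The simulated windows were drawn from all levels that passed the filter and shared 1 dispersion. These shares therefore do not give the power for member windows, and the smallest detectable change in a member window was not tested.

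The shape of the profile was compared between groups for the 8 members with windows at the level filter. Pearson's r between the mean log2 profile of nano-TiO2 and that of sham, over windows with a mean of at least 10, was 0.997 in Hspb1, 0.996 in Hspb7, 0.995 in Cryab and Hspa8, and 0.986 in Hsp90ab1. It was 0.967 in Hspa5, 0.932 in Hsp90aa1 and 0.591 in Dnajb1, whose highest window averaged 29.6 reads. These are descriptions over windows that share their libraries. The share of a gene's reads in its first 25% of windows, in its last 25% and in its highest window was computed for the 9 members with a mean of at least 100 reads. Groups lay apart in 2 of these 27 values, against 14.0% over all genes. The first 25% of Hspa1b windows held 1.03%, 1.38% and 0.0% of its reads in nano-TiO2 against 1.69%, 2.03% and 2.02% in sham, which rests on few reads. The highest window of Hsp90ab1 held 1.63%, 1.68% and 1.65% of its reads in nano-TiO2 against 1.97%, 1.73% and 1.88% in sham. Both lay lower in nano-TiO2, and no test was run on these shares.

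Covered stretches differed between members in ways both groups shared. Hspa5 windows at a mean of at least 10 started from 1 to 2976 of a gene whose last window starts at 4201, and its last 25% of windows held 0.0168% to 0.0538% of reads in nano-TiO2 and 0.0133% to 0.0353% in sham. Hspb7 windows at that level began only at 776 and its reads peaked at 2476, near the far end of the window order. Hspb1 was covered from 1 to 876 with 1 gap of 3 windows under a mean of 1 read, at 501 to 551, and Cryab from 1 to 1326 with 1 such gap at 801 to 851. Hspa8 had 8 such gaps with 63 windows. The 3′ end of a gene could not be located among its windows, and no exon map came with the files, so these positions are not assigned to coding or untranslated sequence.

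**Figure D5:**
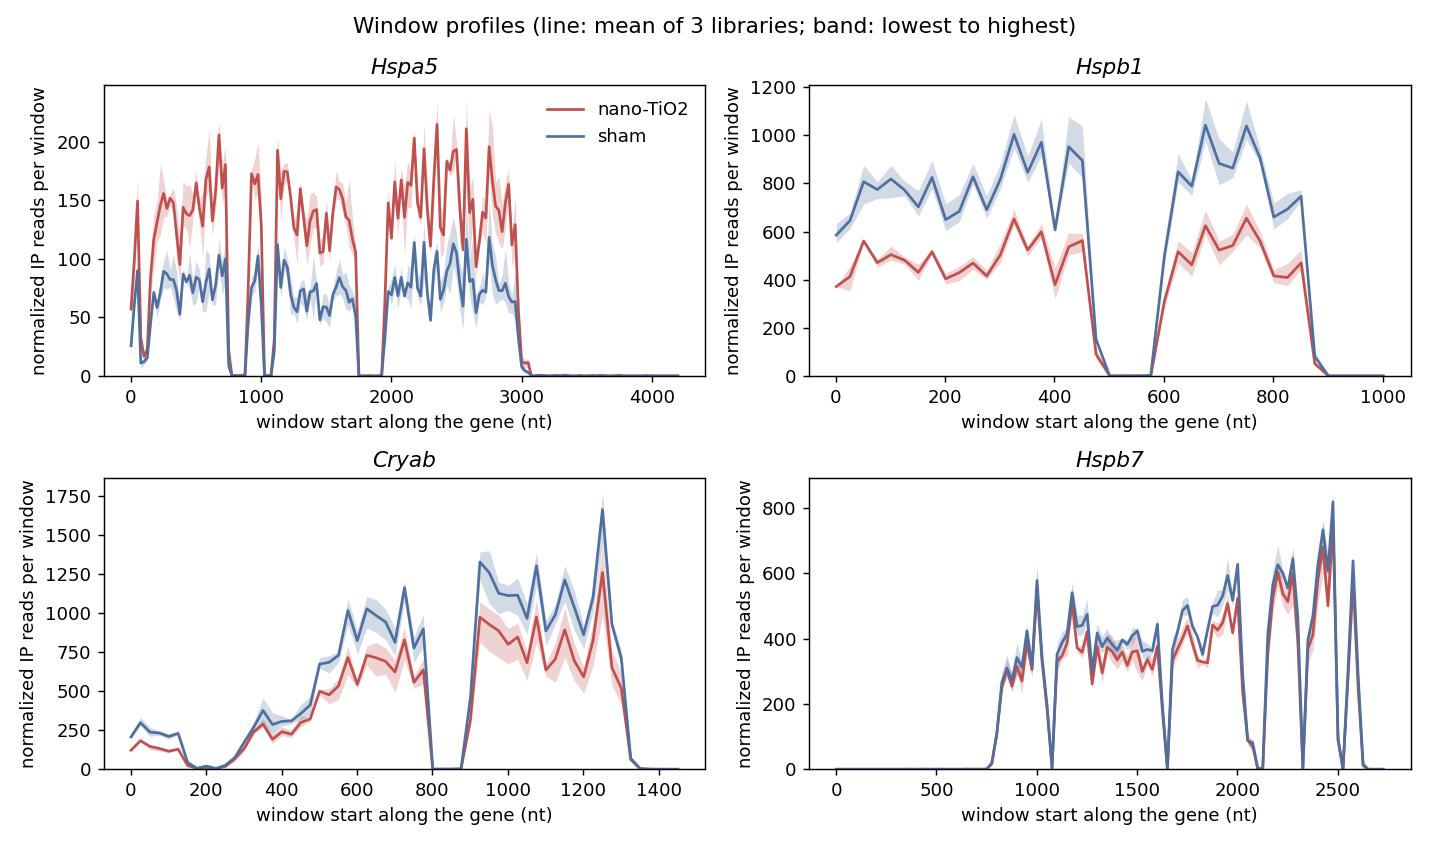
Mean normalized IP reads per window against the window start (nucleotides along the gene's windows), for nano-TiO2 and sham (n = 3 each), with bands from the lowest to the highest library. The 4 panels are Hspa5, Hspb1, Cryab and Hspb7. The log2 changes of all 104 tested Hspa5 windows are above 0 and those of all 32 Hspb1 windows below 0.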

How the data were processed

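Anti-m6A IP reads of 6 libraries (3 nano-TiO2, 3 sham, from the sample titles) were used, and input libraries were not used here. Per the labels' protocols, 3 µg of RNA was fragmented and bound to 5 µg of antibody. The submitters' processing notes name the build GRCm39, DESeq2 1.34.0, Salmon 1.5.2 and HISAT2 2.2.1 without their roles. How windows were counted was not stated. The deposited normalized values are a signal per window, and 100.0% of them came out as whole reads (tolerance 0.0001) when divided by a single step for their library. The deposited adjusted values are whole-number scores, the normalized value over 1 factor per gene and library, rounded. Another deposited table was identical to the normalized one.

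Gene levels are sums over windows. Features averaging 10 or more were tested with limma 3.58.1 (trend, R 4.3.3) on log2(value + 1), which understates changes of low genes, and windows within genes with diffSplice, over the whole table. On recovered reads, edgeR 4.0.16 and DESeq2 1.42.0 were alternatives and called 6932 and 7316 genes, against 6676 by limma. Other alternatives were the pseudocount, the level filter, scalings, array weights, a replicate block and leaving out each library. Libraries held 20205024 to 31523675 reads, and PCR copies are not independent molecules. On simulated data the gene test found 5.97% of genes changed 1.5-fold, 38.8% of those changed 2-fold and 78.8% of those changed 4-fold among 18566 in IP level. The shares were 16.4%, 38.8% and 74.2% among 19361 in adjusted level. The IP level test made 90 calls there, against 6676 in the data. These shares therefore do not give the power for single members. Single windows in IP level gave 7.46% of 2-fold and 80.3% of 4-fold changes among 250317. The within-gene test made 20 false calls among 81.

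The members and lists were chosen with earlier results of these data known. All 10 members are named. Symbols come from the list of names, and no table at hand pairs the other Ensembl IDs with symbols. Counts for a wider list of chaperone genes and for cell type markers were therefore not analysed here. Promoters were from RefSeq (GRCm38.p6). Python 3.11.15, pandas 2.3.3, NumPy 2.4.6 and matplotlib 3.10.9 were used.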

Additional observations from a re-analysis of the deposited data

How the results depend on the processing

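With 3 libraries a group, small changes of single members may have been missed, and the smallest change detectable in a member was not tested. Library scaling and array weights changed several calls, and the cause of each change below was not tested unless fewer samples explain it. In IP level, 3 members were called. Leaving out 1 library gave 2, Hspa5 and Hspb1. Deviations from the group means correlated at -0.365, 0.177 and 0.024 between samples of the same replicate number. Between samples of different numbers they ranged from -0.561 to 0.518. Deviations within a group are tied to each other, so these values cannot settle whether samples were paired. With the number as a replicate block 3 members and 6415 genes were called, against 6676. In adjusted level, 0 members were called, 5 with array weights and 0 to 1 with a library left out (1 without sham replicate 2). The factor's 2 calls became 0 when centred on the median factor, with the replicate block and in every fit with a library left out. At a mean of at least 50 on both scales the factor called 3 members (1 higher, 2 lower) and 4488 genes, against 2715 in the main fit. Called member windows in IP level were 134 (96 higher, 38 lower), 119 after quantile normalization (119 higher, 0 lower) and 60 to 113 with a library left out. Windows within genes had 0 calls, 3 at a mean of at least 1 and 0 to 1 with a library left out. Profile shares lay apart in 2 cases, 1 at a mean of at least 1000, 3 with the first and last 20% of windows and 3 to 7 with a library left out. The case added with 20% was the first 20% of Cryab windows. These held 3.66%, 4.12% and 3.58% of its reads in nano-TiO2 against 4.97%, 4.78% and 4.16% in sham. Groups lie apart more readily with fewer libraries, and the share over all genes was not computed for those settings, so the rise is not read as a result. Of all genes called in IP level, 4450 were higher and 2226 lower, against 3075 and 2796 after quantile normalization, 8005 and 169 with equal totals, 6300 and 1012 with equal totals outside the 4 leading genes, and 2110 and 2417 with the length trend removed. The median log2 change of all genes was 0.13, against -0.05, 0.61, 0.39 and -0.04 in these settings, and 0.02 after quantile normalization of adjusted level, against 0.17.

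Log2 changes in IP level that changed sign belonged to 7 members not called and to Cryab. With equal totals they were 0.46 for Hspa1a, 0.35 for Hspa1b, 0.46 for Hsp90aa1, 0.41 for Hsp90ab1, 0.33 for Hspb7, 0.027 for Cryab and 0.48 for Dnajb1. With equal totals outside the 4 leading genes they were 0.24, 0.12, 0.23, 0.18, 0.10 and 0.25 for Hspa1a, Hspa1b, Hsp90aa1, Hsp90ab1, Hspb7 and Dnajb1. After quantile normalization they were 0.23 for Hsp90aa1, 0.43 for Hsp90ab1, 0.33 for Hspb7 and 0.026 for Dnajb1. Hspa8 turned to -0.23 with the length trend removed, -0.0059 with edgeR and -0.10 with DESeq2. With a library left out the ranges were -0.25 to 0.17 for Hspa1a, -0.34 to 0.022 for Hspa1b, -0.00098 to 0.10 for Hspa8, -0.38 to 0.18 for Hsp90aa1, -0.23 to 0.021 for Hsp90ab1 and -0.23 to 0.15 for Dnajb1. In adjusted level, the sign changed after quantile normalization for Hspa1a (-0.16) and Hspb1 (0.0038), with array weights for Hspa1b (0.021), with equal totals for Cryab (0.014) and for Hspa1a when summed with Hspa1b (-0.047). With a library left out adjusted changes were -0.048 to 0.16 for Hspa1a, -0.22 to 0.058 for Hspa1b and -0.0041 to 0.12 for Hsp90aa1. Hspa5 kept its direction in all alternatives on both scales.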
